A study of Mus musculus with 10 samples.

Results

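Chemokine receptors are 7-transmembrane receptors that couple to Gi proteins and steer leukocytes along gradients of chemokines. The 9 described here are Ccr1, Ccr2, Ccr3, Ccr7, Cx3cr1, Cxcr2, Cxcr3, Cxcr4 and the atypical receptor Ccrl2. They are a part of the family, linked to monocytes, neutrophils, dendritic cells and eosinophils, though not only to these. Each was chosen by its gene symbol among the 55421 genes of the raw count table. All 9 had counts in every library, from 73 to 67623 reads, and all passed the filter on low counts in each comparison.

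RNA was sequenced from 10 libraries of myeloid cells taken on day 15 after MC17-51 fibrosarcoma cells were implanted under the skin of mice. Shp2f/f mice, which served as controls, carry floxed alleles of Ptpn11, the gene of the phosphatase SHP-2. Shp2f/fLysMcre mice carry the same floxed alleles and also Cre recombinase driven by the lysozyme (LysM, Lyz2) promoter, so that Ptpn11 is deleted in myeloid cells. Myeloid-derived suppressor cells (MDSCs, immature myeloid cells that accumulate in tumor-bearing hosts) came from the spleen with 2 libraries per genotype, and tumor-associated macrophages (TAMs) came from the tumor with 3 libraries per genotype. The study describes mice of 8 to 12 weeks, bead isolation of the MDSCs as Gr-1 high, Ly6G-positive and Ly6C-negative cells, and sorting of the TAMs as CD45-, CD11b- and F4/80-positive, Ly6G-negative cells of the same mice. It is not stated in the sources used here which libraries shared a mouse or whether 1 library pooled several mice. The p-values therefore weigh each difference against the spread between these libraries, which may not be the spread between mice.

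Total counts per library ran from 28844660 to 38222998, and levels are given as CPM, the reads of a gene scaled to the same library total after TMM normalization, which centers the libraries on the bulk of their genes. Ptpn11 was at 121, 126 and 121 CPM in TAMs of Shp2f/f mice and at 51.4, 55.0 and 53.5 CPM in TAMs of Shp2f/fLysMcre mice (log2 fold change −1.24, SE 0.0386, adjusted p = 2.96e-09, edgeR). In MDSCs it was at 113 and 99.4 CPM and at 94.7 and 77.5 CPM, a difference that did not pass the test (log2 fold change −0.29, adjusted p = 0.361). Lyz2, the gene into which the Cre is inserted, fell by 8.33 on the log2 scale in TAMs and by 7.68 in MDSCs. The female-specific transcript Xist lay at 4.86 to 18.1 CPM in TAMs of Shp2f/f mice against 211 to 369 CPM in those of Shp2f/fLysMcre mice, and at 0.0289 to 0.0291 against 116 to 132 CPM in MDSCs, so the sex of the mice and the genotype cannot be told apart in any comparison of genotypes. The macrophage markers Adgre1 (F4/80), C1qa and Mrc1 were above 630 CPM in every TAM library. Ly6g, the marker of the cells that the MDSC isolation targeted, was only at 8.93 to 33.2 CPM in the MDSC libraries, where the monocyte genes Ly6c2 and F13a1 lay at 477 to 576 and 958 to 1934 CPM. Summed over the lists, mature neutrophil markers lay at 8290 to 22100 CPM in these 4 libraries, mostly from S100a8 and S100a9, immature neutrophil markers at 2620 to 12200 CPM and classical monocyte markers at 4220 to 6070 CPM. The libraries thus held transcripts of neutrophils and of monocytes, with little Ly6g, and are called MDSCs as labelled. Fewer cells of a type and less RNA per cell cannot be told apart in such bulk samples.

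In TAMs, 8 of the 9 receptors differed between the genotypes: Cxcr4, Cxcr2, Ccrl2 and Cxcr3 were higher in Shp2f/fLysMcre mice, and Ccr3, Ccr2, Ccr7 and Cx3cr1 were lower. Among all 14446 genes tested in TAMs, 50.2% were called at an adjusted p under 0.05, 23.9% as higher and 26.3% as lower. For the same 8 receptors the libraries of both genotypes did not overlap, which held for 56.8% of all genes tested. In MDSCs none of the 9 receptors was called by edgeR, where 4.28% of 14806 genes were. For 2 receptors, Ccr2 and Cxcr2, the unadjusted p was under 0.05, as it was for 2859 of the 14806 genes. DESeq2 called both of them, among 1256 genes that it called in MDSCs. The libraries of the genotypes did not overlap for 4 of the 9 (Ccr1, Ccr2, Ccr7 and Cxcr2), beside 50.2% of all genes tested there.

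The sequences just upstream of the transcription starts of the receptors that moved most in TAMs (Cxcr4, Cxcr2, Ccrl2 and Ccr3) are printed here, since these promoters are where a reader would look first for shared elements. Each covers the 250 bases before the start that RefSeq gives (GRCm38.p6), read 5′ to 3′ on the strand of the gene. The Cxcr4 promoter is chr1:128592300-128592549 on the minus strand, that of Cxcr2 chr1:74153744-74153993 on the plus strand, that of Ccrl2 chr9:111057519-111057768 on the minus strand, and that of Ccr3 chr9:124021721-124021970 on the plus strand. RefSeq lists 3 starts for Ccrl2, and the one farthest upstream is shown. Capitals mark matches, on either strand, to any of 6 motifs. The core bound by PU.1 and other ETS factors was searched as GAGGAA, and that of Krüppel-like factors as CACCC. The AP-1 motif was searched as TGANTCA, the TATA box as TATAAA, the E-box as CACGTG and the C/EBP motif as TTGCNNAA.
Cxcr4: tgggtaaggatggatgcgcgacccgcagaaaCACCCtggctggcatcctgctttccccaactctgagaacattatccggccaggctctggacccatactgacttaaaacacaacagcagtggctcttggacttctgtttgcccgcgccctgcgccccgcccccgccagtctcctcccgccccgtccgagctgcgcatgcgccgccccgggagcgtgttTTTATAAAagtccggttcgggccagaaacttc
Cxcr2: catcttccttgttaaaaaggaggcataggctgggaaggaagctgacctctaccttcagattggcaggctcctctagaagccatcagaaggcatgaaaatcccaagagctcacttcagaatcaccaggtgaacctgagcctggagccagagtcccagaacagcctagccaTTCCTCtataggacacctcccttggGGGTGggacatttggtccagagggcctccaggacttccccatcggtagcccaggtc
Ccrl2: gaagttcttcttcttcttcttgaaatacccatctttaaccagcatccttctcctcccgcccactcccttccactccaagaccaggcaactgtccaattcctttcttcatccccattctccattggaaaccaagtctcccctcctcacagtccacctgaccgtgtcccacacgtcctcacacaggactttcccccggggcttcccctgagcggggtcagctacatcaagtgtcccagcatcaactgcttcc
Ccr3: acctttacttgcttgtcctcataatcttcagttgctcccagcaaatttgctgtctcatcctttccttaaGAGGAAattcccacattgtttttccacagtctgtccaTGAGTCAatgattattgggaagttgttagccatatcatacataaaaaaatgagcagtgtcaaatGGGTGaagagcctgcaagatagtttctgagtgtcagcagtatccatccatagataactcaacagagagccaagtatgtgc

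The Cxcr4 promoter held a TATA box whose matches on both strands overlap, and 1 CACCC. That of Cxcr2 held 1 GAGGAA and 1 CACCC, both on the opposite strand. The Ccr3 promoter held 1 GAGGAA, 1 TGANTCA (as TGAGTCA) and 1 CACCC, and the Ccrl2 window shown held none of the 6 motifs. The window of each other Ccrl2 start held 2 matches to CACCC, both on the opposite strand. Over the 32841 promoters of the same length, CACCC was present in 52%, GAGGAA in 23.3%, TATAAA in 12.4%, TTGCNNAA in 9.57%, TGANTCA in 6.75% and CACGTG in 6.02%. These are matches of letters in these windows only. Of the 9 receptors, 8 had an entry in the promoter table, all but Ccr7.

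Cxcr4, the receptor of Cxcl12 that retains myeloid cells in bone marrow and hypoxic tissue, was among the most abundant receptors of TAMs. It was at 189, 196 and 188 CPM in the 3 TAM libraries of Shp2f/f mice and at 415, 416 and 387 CPM in the 3 of Shp2f/fLysMcre mice. Every library of the latter stood far above every library of the former. The rise was 2.06-fold (log2 fold change 1.05, SE 0.0374, adjusted p = 8.04e-09, edgeR's quasi-likelihood test with Benjamini-Hochberg adjustment, as for all adjusted p-values below unless another tool is named). Only 4.8% of the genes tested had a larger change in size. In MDSCs Cxcr4 was at 173 and 170 CPM in Shp2f/f mice and at 171 and 151 CPM in Shp2f/fLysMcre mice, and the ranges of the genotypes overlapped (log2 fold change −0.07, 2 SE either side −0.31 to 0.16, adjusted p = 0.81).

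Cxcr2, which binds the ELR-positive CXC chemokines and is the main chemotactic receptor of neutrophils, was far lower in TAMs than in MDSCs and also rose. Its TAM values were 7.99, 7.91 and 7.71 CPM in Shp2f/f mice against 16.8, 16.8 and 16.02 CPM in Shp2f/fLysMcre mice. The separation was as tight as for Cxcr4 (2.04-fold, log2 fold change 1.03, SE 0.0599, adjusted p = 1.87e-07). Among 7 markers of mature neutrophils, of which 6 were tested in TAMs, 4 rose (Csf3r, Mmp8, S100a8 and S100a9) and 1 fell (Mmp9). The median log2 fold change of the 6 was 0.52. The summed level of the 7 went the other way, from 4250 to 4590 CPM in Shp2f/f mice to 2390 to 2570 CPM in Shp2f/fLysMcre mice. Mmp9 was the only marker called lower, so this sum does not stand for the list. Ly6g was near 0 in all 6 libraries (2 to 11 reads). The part of neutrophil transcripts in the Cxcr2 level was not tested. About 8.75% of the 42-base windows along Cxcr2 exons also occur in exons of other genes, so a small share of its reads could be assigned elsewhere.

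Cxcr2 in MDSCs was at 138 and 109 CPM in Shp2f/f mice and at 265 and 163 CPM in Shp2f/fLysMcre mice. Both libraries of the latter were higher, but they stood farther apart from each other than the lower one did from the controls (log2 fold change 0.81, SE 0.253, unadjusted p = 0.0208, adjusted p = 0.166). The call depended on the setting, with adjusted p from 2.59e-08 to 0.963 over 10 alternatives, of which 4 called it. Leaving out replicate 2 of the Shp2f/fLysMcre MDSCs gave a log2 fold change of 1.11 (adjusted p = 2.59e-08), and leaving out replicate 1 gave 0.40 (adjusted p = 0.0966). Markers of immature neutrophils moved with Cxcr2 here: 10 of 10 rose, and their sum went from 2620 to 2830 CPM in Shp2f/f mice to 9460 to 12200 CPM in Shp2f/fLysMcre mice. Of 7 mature neutrophil markers, 3 rose, 0 fell and 4 were not called, with sums of 8290 to 8380 CPM against 18100 to 22100 CPM. The part of either list in the Cxcr2 value was not tested.

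Ccrl2, an atypical receptor that binds chemerin and presents it without signalling through G proteins, was at 235, 248 and 232 CPM in TAMs of Shp2f/f mice and at 389, 374 and 371 CPM in those of Shp2f/fLysMcre mice. The groups were again well apart, with a 1.54-fold rise (log2 fold change 0.62, SE 0.0382, adjusted p = 2.82e-07). Chemerin itself (Rarres2) was close to absent from TAMs, at a mean of 0.0175 CPM in Shp2f/f and 0.0448 CPM in Shp2f/fLysMcre mice, and was not tested there. MDSCs held Ccrl2 at 52.3 and 53.0 CPM in Shp2f/f mice and at 52.7 and 47.7 CPM in Shp2f/fLysMcre mice, a difference of −0.05 on the log2 scale (2 SE either side −0.26 to 0.16, adjusted p = 0.861).

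Cxcr3, best known from activated T cells and shared by some dendritic cells, was the lowest of the receptors in TAMs of Shp2f/f mice. Its TAM values were 2.30, 1.92 and 2.34 CPM in Shp2f/f mice and 3.33, 2.65 and 3.14 CPM in Shp2f/fLysMcre mice, from 73 to 102 reads per library. The call was marginal (log2 fold change 0.43, SE 0.162, adjusted p = 0.0457). It was kept by 4 of 12 alternatives, with adjusted p from 0.0343 to 0.147, and was lost without replicate 1 or 2 of the Shp2f/f TAMs and without replicate 1 or 3 of the Shp2f/fLysMcre TAMs (log2 fold changes 0.34 to 0.47). T and NK cell markers moved the other way: 10 of 11 fell in TAMs and none rose, from a sum of 31.9 to 33.7 CPM to one of 12.7 to 13.7 CPM. Cxcr3 lies on chromosome X. In MDSCs it was at 2.42 and 2.31 CPM against 2.60 and 1.88 CPM (log2 fold change −0.06, 2 SE either side −0.59 to 0.46, adjusted p = 0.936).

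Ccr1, which binds Ccl3, Ccl6, Ccl7 and Ccl9 and is shared by monocytes, macrophages and neutrophils, was the receptor in TAMs that did not pass the test. Its values of 332, 356 and 324 CPM in Shp2f/f mice overlapped those of 398, 379 and 354 CPM in Shp2f/fLysMcre mice (log2 fold change 0.12, 2 SE either side 0.03 to 0.21, adjusted p = 0.0527). Of 12 alternatives 4 called it, with adjusted p from 0.0102 to 0.726, among them the fits without replicate 2 of the Shp2f/f TAMs and without replicate 3 of the Shp2f/fLysMcre TAMs (both 0.15). In MDSCs it was at 241 and 243 CPM and at 231 and 186 CPM (log2 fold change −0.20, adjusted p = 0.535), which became −0.38 (adjusted p = 0.0341) without replicate 1 of the Shp2f/fLysMcre MDSCs and −0.06 (adjusted p = 0.786) without replicate 2.

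**Figure D1:**
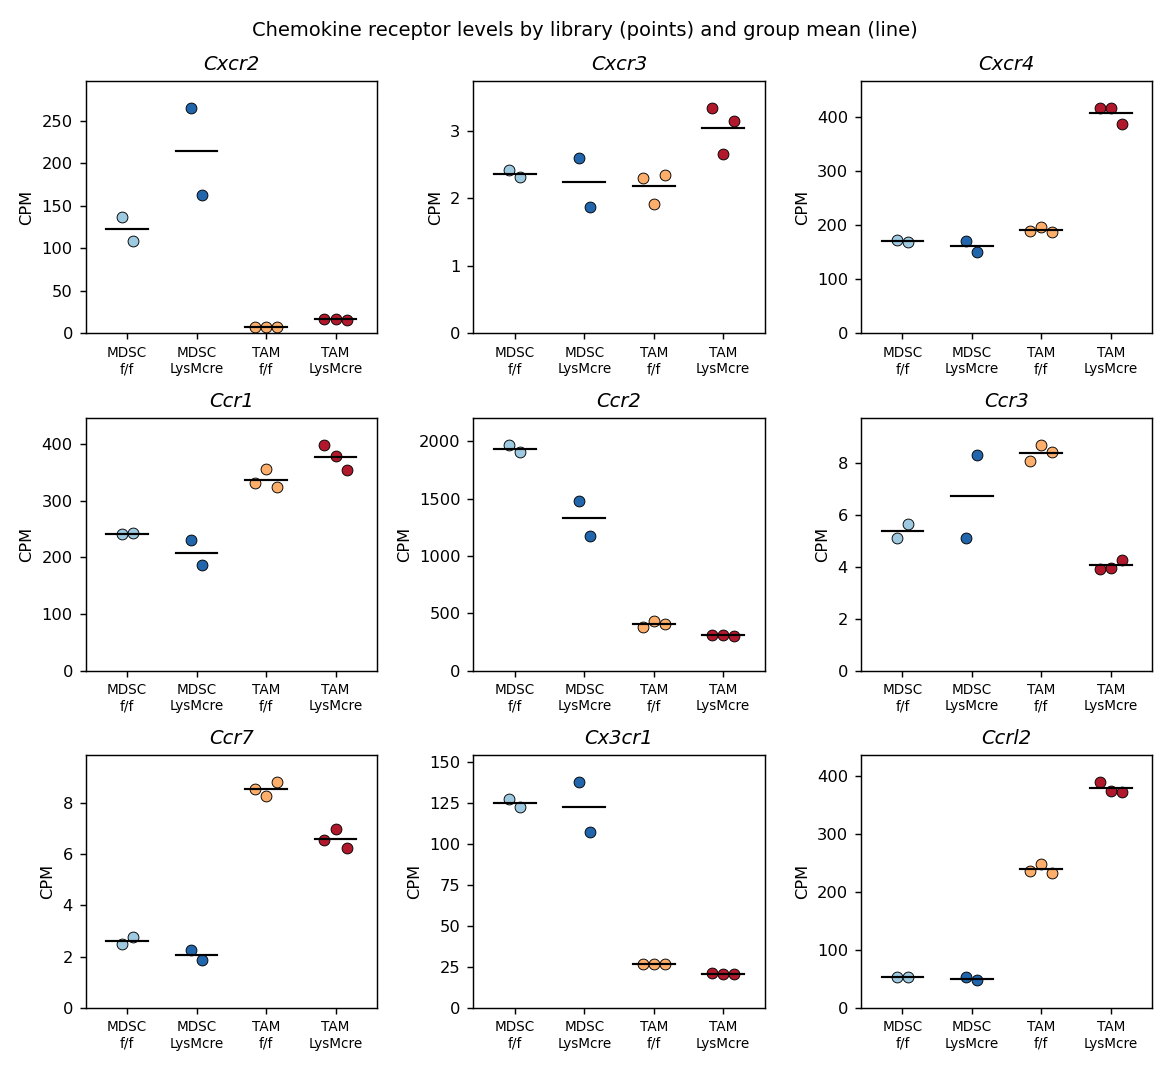
Levels of the 9 receptors in each library, in TMM-scaled CPM on linear axes that start at 0, with 1 panel per gene, points for libraries and lines for group means. Cxcr4, Ccrl2 and Cxcr2 separate the TAM genotypes upward, Ccr3, Ccr2, Ccr7 and Cx3cr1 downward, while the MDSC libraries of Shp2f/fLysMcre mice spread widely for Cxcr2, Ccr2 and Ccr3.

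Ccr3, the eotaxin receptor that marks eosinophils, had the greatest change in size among the 9 receptors in TAMs, from a low level. It was at 8.08, 8.67 and 8.42 CPM in TAMs of Shp2f/f mice (274 to 330 reads) and at 3.92, 3.95 and 4.27 CPM in those of Shp2f/fLysMcre mice (117 to 131 reads). All 3 libraries of the latter lay well below the controls (fell by 1.10 on the log2 scale, SE 0.0879, adjusted p = 1.87e-06). Eosinophil markers were too low in TAMs to show whether they moved with it, and only 1 of the 5 was tested. They summed to 0.413 to 0.788 CPM in Shp2f/f mice and 0.425 to 0.839 CPM in Shp2f/fLysMcre mice, each was under 1 CPM, and Epx was listed at 0 in all 3 libraries of the latter. In MDSCs the eosinophil markers summed to 7.68 and 6.16 CPM in Shp2f/f mice and to 14.8 and 11 CPM in Shp2f/fLysMcre mice. Of the 3 tested there by edgeR, 0 were called and 3 had an unadjusted p under 0.05, beside 2859 of all 14806 genes. The part of eosinophils in the Ccr3 level was not tested. Ccr3 in MDSCs was at 5.12 and 5.64 CPM against 5.12 and 8.31 CPM, where the high value came from replicate 2 of the Shp2f/fLysMcre MDSCs. That library stands apart, with 7 fibroblast genes summing to 532 CPM against 10.4 to 28.9 CPM in the other 3 MDSC libraries. The log2 fold change was 0.34 (adjusted p = 0.599), and −0.06 without that library. Without replicate 1 of the same group it was 0.63 and passed the test, with adjusted p from 0.0335 to 1 over the 10 alternatives.

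Ccr2, which recruits classical monocytes out of bone marrow toward Ccl2 and Ccl7, fell in TAMs. It was at 382, 433 and 408 CPM in Shp2f/f mice and at 308, 309 and 303 CPM in Shp2f/fLysMcre mice. The libraries of Shp2f/fLysMcre mice were nearly level with each other and below each control (fell by 26.9%, log2 fold change −0.45, SE 0.0436, adjusted p = 7.55e-06). Of 6 classical monocyte markers, 4 rose in TAMs and 1 fell, with sums of 1570 to 1650 CPM against 2120 to 2230 CPM, so the summed monocyte markers and Ccr2 moved in opposite directions. Ccr2 shares 2.35% of its exon windows with other genes.

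Among MDSCs, Ccr2 had the highest level of any receptor, at 1967 and 1907 CPM in Shp2f/f mice and at 1481 and 1176 CPM in Shp2f/fLysMcre mice. Both libraries of the latter were lower (log2 fold change −0.53, SE 0.149, unadjusted p = 0.014, adjusted p = 0.133). Over the 10 alternatives the log2 fold change stayed between −0.72 and −0.38, and 4 of them called it (adjusted p from 0.00523 to 0.963), 1 being the fit without replicate 1 of the Shp2f/fLysMcre MDSCs. None of the 6 classical monocyte markers was called in MDSCs by edgeR, with sums of 5990 to 6070 CPM against 4220 to 5620 CPM. An unadjusted p under 0.05 was found for 2 of them, beside 2859 of all 14806 genes.

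Cx3cr1, the fractalkine receptor of patrolling monocytes and tissue macrophages, was at 26.7 CPM in each of the 3 TAM libraries of Shp2f/f mice. In Shp2f/fLysMcre mice it was at 21.5, 20.6 and 20.4 CPM, below every control (log2 fold change −0.40, SE 0.047, adjusted p = 3.34e-05). MDSCs had 127 and 123 CPM against 138 and 107 CPM, so the libraries of Shp2f/fLysMcre mice enclosed the controls (log2 fold change −0.01, 2 SE either side −0.31 to 0.28, adjusted p = 0.975). Its exons overlap those of Gm33858 on the opposite strand, and the strand setting of the counting is not given in the sources used here.

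Ccr7, which takes mature dendritic cells to lymph nodes, was at 8.52, 8.28 and 8.80 CPM in TAMs of Shp2f/f mice and at 6.54, 6.99 and 6.24 CPM in those of Shp2f/fLysMcre mice. The groups did not overlap (log2 fold change −0.41, SE 0.0781, adjusted p = 0.00106). Markers of mature dendritic cells moved with it: of 5, 4 were tested, 3 fell and none rose, with sums of 30.6 to 31.4 CPM against 21.3 to 24.8 CPM. Among them Ccl22 went from a mean of 4.45 to 2.09 CPM and Fscn1 from 18.8 to 15.2 CPM. T and NK cell markers, given above for Cxcr3, fell as well. B cell markers went the other way, with sums of 4.1 to 4.71 CPM against 10.3 to 11.8 CPM. Of 7 B cell markers, 3 were tested, 1 rose and none fell. The part of any of these cell types in the Ccr7 level was not tested. In MDSCs Ccr7 was at 2.47 and 2.75 CPM against 2.27 and 1.88 CPM (log2 fold change −0.31, 2 SE either side −0.80 to 0.17, adjusted p = 0.577).

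Across TAMs the median log2 fold change of the 9 receptors was 0.12, beside −0.01 for all genes tested. Macrophage markers rose in 10 of 10 cases (sums of 12700 to 13500 CPM against 20000 to 22700 CPM), so the receptors that fell did so while that list rose. Transcripts of pancreatic islets, foreign to a macrophage sort, summed to 850 to 6550 CPM in TAMs of Shp2f/f mice, the highest being replicate 3, and to 6.06 to 81.4 CPM in those of Shp2f/fLysMcre mice. Without that replicate no receptor changed direction in TAMs, and the same 8 receptors were called. This fit cannot part the islet transcripts from the genotype, since replicates 1 and 2 of the Shp2f/f TAMs still held 1250 and 850 CPM of them. Their part in the receptor differences was not tested. With total counts in place of TMM, the median of all genes in TAMs moved to −0.11 and the calls from 3452 higher and 3805 lower to 2342 higher and 5227 lower. Of the 9 receptors none changed direction in TAMs under that scaling, and Cxcr3 lost its call.

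For 3 receptors the genotype difference itself differed between TAMs and MDSCs, tested as an interaction over all 10 libraries, where 24.9% of 16581 genes were called. Of these, 2030 were higher and 2102 lower, which became 1234 and 3132 with total counts in place of TMM. The difference of effects, TAM minus MDSC, was 1.15 on the log2 scale for Cxcr4 (SE 0.0839, adjusted p = 2.06e-05). It was 0.70 for Ccrl2 (SE 0.0801, adjusted p = 0.000227) and −1.41 for Ccr3 (SE 0.268, adjusted p = 0.00438). MDSC libraries varied more than TAM libraries, and in simulated data with that property 20.3% of its calls were on genes left unchanged, against 6.25% for limma's voom with a weight per cell type. That test called the same 3 receptors, with adjusted p of 2.85e-05 for Cxcr4, 0.000855 for Ccrl2 and 0.00463 for Ccr3. Over 16 alternatives each of the 3 was always called, with adjusted p of at most 0.029. For the other 6 the difference did not pass the test. The closest were Cx3cr1 (−0.36, adjusted p = 0.0566) and Ccr1 (0.35, adjusted p = 0.062), each called by 3 of the 16 alternatives. Without replicate 2 of the Shp2f/fLysMcre MDSCs the value of Cx3cr1 was −0.51 (adjusted p = 0.000555), without replicate 1 it was −0.18 (adjusted p = 0.0989), and total-count scaling also called it (adjusted p = 0.00405). Ccr1 was at 0.50 (adjusted p = 0.00199) without replicate 1 and at 0.21 (adjusted p = 0.144) without replicate 2 of that group, and DESeq2 also called it (adjusted p = 0.0182). For Ccr2 (0.11, 2 SE either side −0.14 to 0.35), Ccr7 (−0.07, −0.43 to 0.29), Cxcr2 (0.25, −0.24 to 0.74) and Cxcr3 (0.53, −0.04 to 1.10) the intervals held 0. That the test was missed does not show that these receptors responded alike in both cell types.

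**Figure D2:**
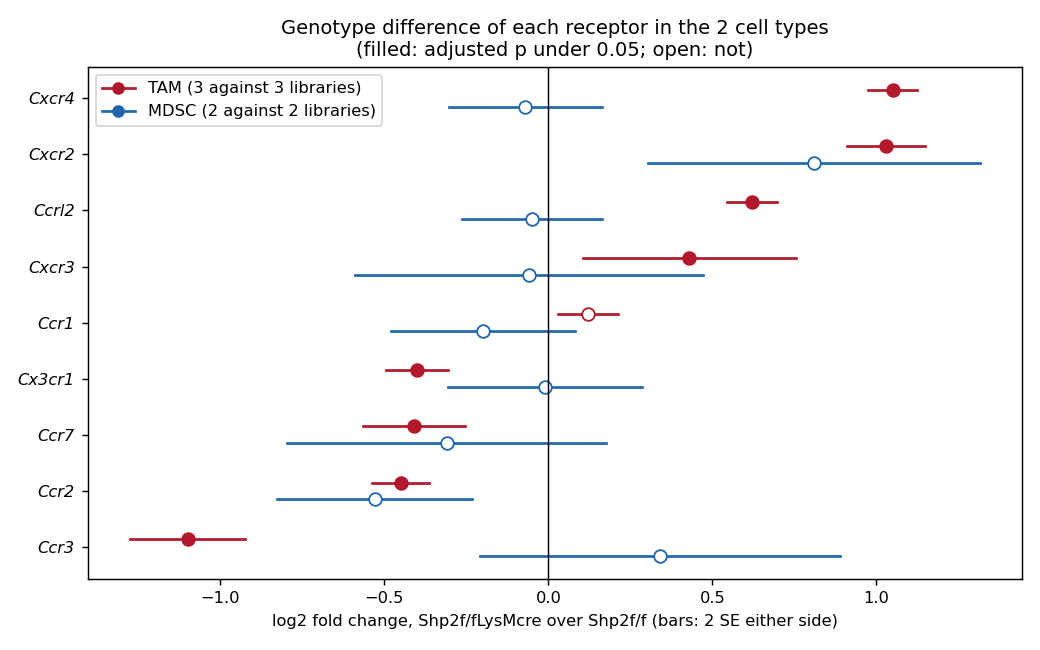
Log2 fold change of each receptor, Shp2f/fLysMcre over Shp2f/f, in TAMs (red) and MDSCs (blue), with bars of 2 SE either side and filled symbols for an adjusted p under 0.05. Cxcr4, Ccrl2 and Ccr3 have intervals that do not meet between the cell types, while the intervals of Ccr2 and Cxcr2 lie wholly on the same side of 0 in both.

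Per length of exon, which allows levels of different genes to be compared, the order of the receptors differed between spleen and tumor cells. In MDSCs of Shp2f/f mice Ccr2 led with 287 ± 6.29 CPM per kb (SD, n = 2), or 51.2% of the sum of the 9, followed by Cxcr4 (94.7), Ccr1 (85.4), Cxcr2 (40.5), Cx3cr1 (27.8) and Ccrl2 (20.3). Ccr3 (1.64), Cxcr3 (1.37) and Ccr7 (1.32) came last, of which Cxcr3 and Ccr7 overlapped. MDSCs of Shp2f/fLysMcre mice kept that order, with Ccr2 at 40.9% of the sum and Cxcr2 at 14.4% against 7.22% in the controls, and here Ccr1 (73.6 ± 11.3) and Cxcr2 (70.3 ± 23.6) also overlapped.

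TAMs of Shp2f/f mice had 4 receptors at a high level per length, Ccr1 (119 ± 5.87 CPM per kb, SD, n = 3), Cxcr4 (106 ± 2.43), Ccrl2 (91.7 ± 3.11) and Ccr2 (60.3 ± 3.82). The next was Cx3cr1 with 5.92, and below it stood Ccr7 (4.31), Cxcr2 (2.58), Ccr3 (2.56) and Cxcr3 (1.26), of which Cxcr2 and Ccr3 overlapped. In Shp2f/fLysMcre mice Cxcr4 moved to the top (225 ± 9.03) with 39.8% of the sum against 26.9% in the controls, followed by Ccrl2 (145 ± 3.55) and Ccr1 (133 ± 7.83). Ccr2 (45.4) held 8.04% against 15.3%. No neighbors in that order overlapped. Summed over the 9, TAMs went from 384.8 to 409.9 CPM per kb in Shp2f/f mice to 543 to 582 CPM per kb in Shp2f/fLysMcre mice, and MDSCs from 549.8 and 569.3 to 423.4 and 537.1 CPM per kb.

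**Figure D3:**
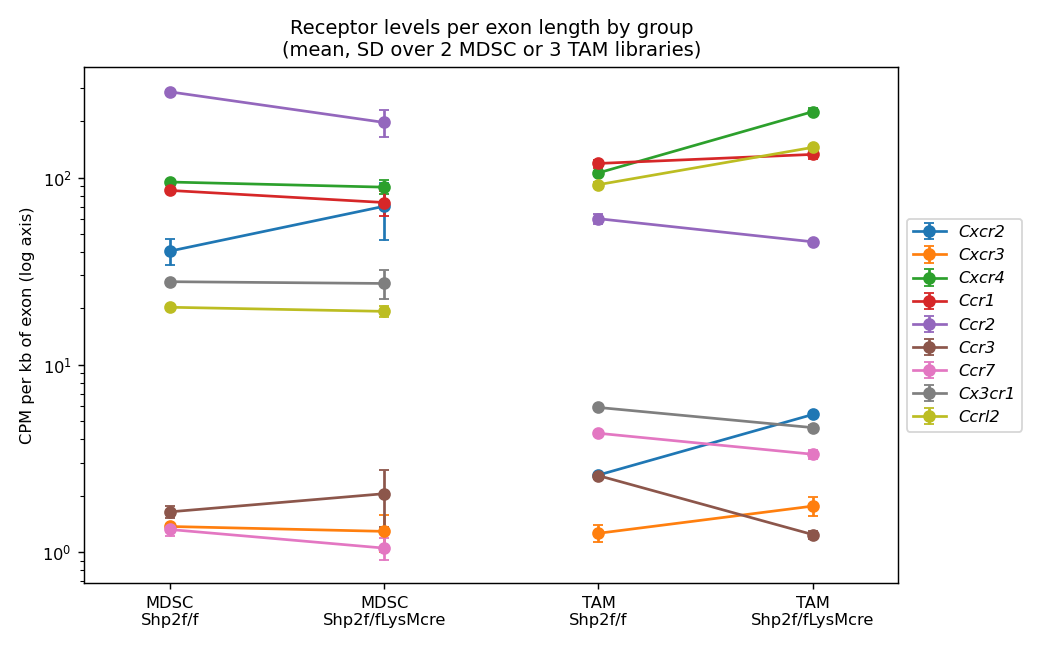
Level of each receptor per kb of exon in the 4 groups, on a log axis, as the mean with SD over 2 MDSC or 3 TAM libraries, with lines joining the genotypes of a cell type. Ccr2 leads in MDSCs at 287 and 197 CPM per kb and stands below Ccr1, Cxcr4 and Ccrl2 in TAMs, while Cxcr4 rises to the top in TAMs of Shp2f/fLysMcre mice at 225 CPM per kb.

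Between the cell types of Shp2f/f mice, 8 of the 9 receptors were called, where 78.8% of 15659 genes were (40% higher and 38.8% lower in TAMs). Lower in TAMs were Cxcr2 (log2 difference −3.97, SE 0.101, adjusted p = 5.64e-10), Ccr2 (−2.25, SE 0.0537, adjusted p = 3.69e-10) and Cx3cr1 (−2.23, SE 0.0463, adjusted p = 1.52e-10). Higher in TAMs, all on the log2 scale, were Ccrl2 (2.18, adjusted p = 2.29e-10), Ccr7 (1.71, adjusted p = 6.06e-07), Ccr3 (0.64, adjusted p = 0.000196), Ccr1 (0.48, adjusted p = 1.26e-05) and, by little, Cxcr4 (0.16, adjusted p = 0.00819). Cxcr3 did not pass the test (−0.11, 2 SE either side −0.49 to 0.26). The tissue, the isolation method and the cell type differ together here and cannot be told apart.

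Between the cell types of Shp2f/fLysMcre mice 8 were called as well, where 63.5% of 15741 genes were (29.8% higher and 33.7% lower in TAMs). With total counts in place of TMM, the split of all genes called moved from 4689 higher and 5301 lower to 3696 higher and 6561 lower. Cxcr2 (−3.71, adjusted p = 3.59e-05), Cx3cr1 (−2.58, adjusted p = 1.64e-05) and Ccr2 (−2.13, adjusted p = 2.64e-05) were again lower in TAMs. Ccr3 stood lower here (−0.76, adjusted p = 0.037) where it was higher in the controls. That call was lost in 6 of 11 alternatives (adjusted p from 0.000435 to 0.114), among them the fits without replicate 2 of the MDSCs (−0.37) and without any 1 of the TAM libraries (−0.79 to −0.71). Ccrl2 (2.89, adjusted p = 5.12e-06), Ccr7 (1.65, adjusted p = 0.000483), Cxcr4 (1.32, adjusted p = 5.72e-05) and Ccr1 (0.83, adjusted p = 0.00108) were higher in TAMs. Cxcr3 was not called (0.42, 2 SE either side −0.06 to 0.91) and was called only without replicate 1 of the MDSCs (0.66).

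Ligands of these receptors were abundant in TAMs, and more rose than fell. Of 22 ligand genes 17 were tested in TAMs, 10 rose and 4 fell, with a median log2 fold change of 0.52 beside −0.01 for all genes. Ligands of Cxcr2 rose with their receptor: Cxcl5 went from a mean of 5.84 to 12.95 CPM (log2 fold change 1.10, adjusted p = 2.11e-06), Ppbp from 153 to 331 CPM (1.07, adjusted p = 1.32e-08), Cxcl3 from 137 to 286 CPM (1.02, adjusted p = 2.97e-08) and Cxcl2 from 1488 to 2437 CPM (0.67, adjusted p = 7.85e-08). Cxcl1, the fifth of them, fell from 237 to 185 CPM (−0.41, adjusted p = 3.11e-05). Ccl3 (0.84, adjusted p = 7.71e-08) and Ccl6 (0.76, adjusted p = 8.99e-08), ligands of Ccr1, rose while Ccr1 itself did not pass the test. Of the 3 Ccr2 ligands, 2 rose while Ccr2 fell, and Ccl12 fell (−0.26, adjusted p = 0.000706). Cx3cl1, the sole ligand of Cx3cr1, fell with it from 1.96 to 1.27 CPM (−0.67, adjusted p = 0.0114), and of the Cxcr3 ligands Cxcl11 fell from 8.13 to 5.83 CPM (−0.52, adjusted p = 0.000281) while Cxcl9 and Cxcl10 did not pass the test. Cxcl1, Ccl12, Cx3cl1 and Cxcl11 are named after their values were seen, to account for all 4 that fell. The ligand of Cxcr4, Cxcl12, was too low to be tested in TAMs (1 to 7 reads per library), and the Ccr7 ligands Ccl19 and Ccl21a had no counted reads in any library. How reads that match several genes were counted is not given in the sources used here, so absence of these ligands is not shown.

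**Figure D4:**
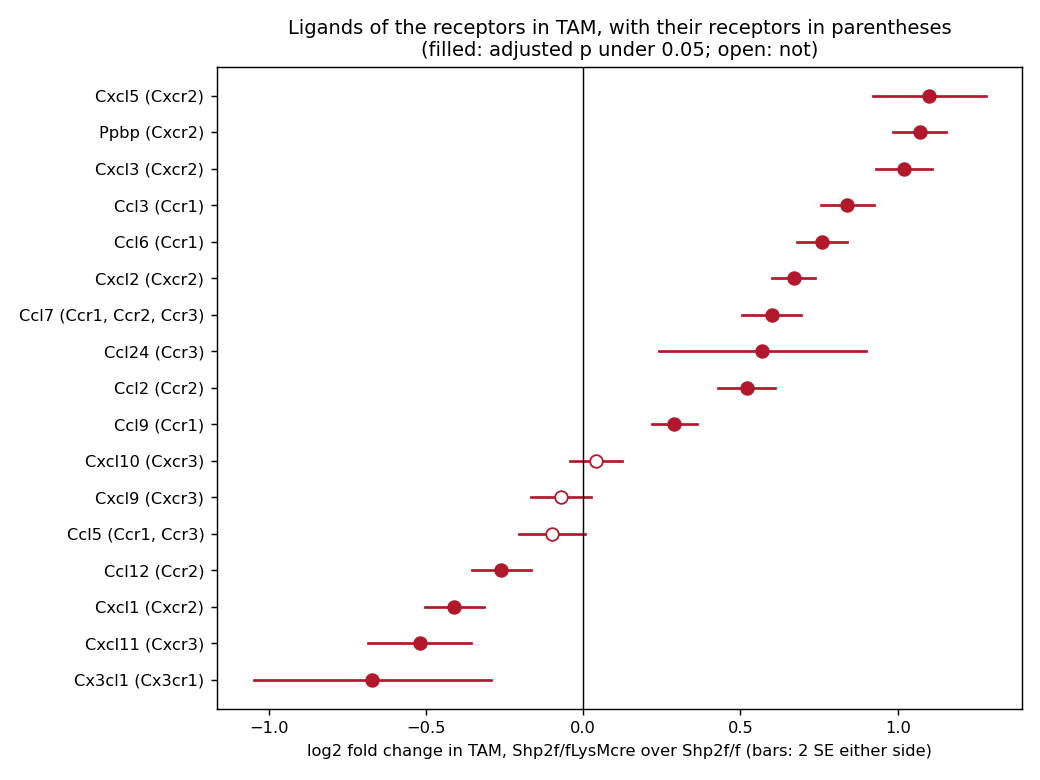
Log2 fold change in TAMs, Shp2f/fLysMcre over Shp2f/f, of the 17 ligands tested, with their receptors in parentheses, bars of 2 SE either side and filled symbols for an adjusted p under 0.05. Cxcl5, Ppbp and Cxcl3, ligands of Cxcr2, are at the top, and the 4 that fell are Ccl12, Cxcl1, Cxcl11 and Cx3cl1.

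In MDSCs 2 of 14 ligands tested were called, both interferon-induced ligands of Cxcr3. Cxcl9 went from 0.902 and 1.04 CPM to 5.20 and 6.46 CPM (log2 fold change 2.60, SE 0.251, adjusted p = 0.0182), and Cxcl10 from 3.404 and 4.05 CPM to 10.7 and 14.2 CPM (1.76, SE 0.216, adjusted p = 0.0208). Reads of Cxcl12 in MDSCs of Shp2f/fLysMcre mice came almost wholly from replicate 2, with 361 reads there and 8 in replicate 1, and Cx3cl1 had 43 reads in that library and 0 in the other 3 MDSC libraries.

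Of 16 further chemokine receptors, 8 were tested in TAMs, 4 rose and 1 fell, with a median log2 fold change of 0.21. Ackr3, an atypical receptor that scavenges Cxcl12, went from 14.1 to 20.7 CPM (0.51, adjusted p = 3.89e-05), and Cmklr1, the signalling receptor of chemerin, from 101 to 146 CPM (0.49, adjusted p = 9e-07). In MDSCs 8 of 9 tested had an unadjusted p under 0.05, beside 2859 of all 14806 genes. The median log2 fold change of the 9 was 1.08, and 1 was called. The summed level of all 16 went the other way, from 278 to 283 CPM in Shp2f/f mice to 168 to 221 CPM in Shp2f/fLysMcre mice. Most were near the floor in MDSCs, with 12 of the 16 averaging under 1 CPM in Shp2f/f mice and 9 in Shp2f/fLysMcre mice. The median therefore does not stand for the level of the list. Cxcr6, the Cxcl16 receptor of T and NK cells, went from 1.75 and 1.59 CPM to 4.25 and 6.24 CPM (1.67, adjusted p = 0.0375).

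Of 7 receptors for complement fragments, formyl peptides and lipid attractants, 6 rose in TAMs and none fell, with a median log2 fold change of 0.53. The greatest were C3ar1 (531 to 900 CPM, log2 fold change 0.72, adjusted p = 1.52e-07), Fpr1 (17.6 to 28.1 CPM, 0.63, adjusted p = 2.11e-06), Ptafr (116 to 183 CPM, 0.62, adjusted p = 2.06e-07) and C5ar1 (346 to 516 CPM, 0.53, adjusted p = 1.03e-06). None of the 7 was called in MDSCs by edgeR, and 4 had an unadjusted p under 0.05, beside 2859 of all 14806 genes.

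Of 20 genes that relay or dampen receptor signals, 13 rose in TAMs and 2 fell, with a median log2 fold change of 0.21. Rgs1 (565 to 969 CPM, 0.74, adjusted p = 3.48e-07) and Rgs2 (239 to 379 CPM, 0.62, adjusted p = 1.11e-06), which speed the turnoff of G proteins, rose together with the G protein subunit Gng2 (73.0 to 117 CPM, 0.64, adjusted p = 1.13e-07), while Rgs16 fell (6.24 to 4.02 CPM, −0.68, adjusted p = 0.00103). None of the 19 tested in MDSCs was called by edgeR, and 4 had an unadjusted p under 0.05, beside 2859 of all 14806 genes.

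The genes whose pattern over the 10 libraries was most like that of each receptor are given as a description, by Pearson's r of log2 CPM. The 10 points share libraries and fall into 4 groups, so r follows the differences between these groups. For Cxcr4 these were Btg2 (r = 0.995) and Nfil3 (0.99), for Cxcr2 Pygl and Tmem154 (both 0.998), for Ccrl2 Bnip3 and Ly9 (both 0.999) and for Ccr3 Efnb1 (0.955) and AU020206 (0.948). For Ccr2 they were Ibtk (0.997) and Gramd4 (0.996), for Cx3cr1 Me2 (0.999) and Dpy19l1 (0.998), for Ccr7 Usp16 (0.997) and Spryd7 (0.996), for Ccr1 Siae (0.996) and Clptm1 (0.995), and for Cxcr3, whose counts were low, Kdm2a (0.898) and Cpeb3 (0.897).

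Of the 9 receptor genes 5 lie on chromosome 9 (GRCm38). Ccr1 (chr9:123962124-123968692, minus strand), Ccr3 (chr9:124021972-124031689, plus strand) and Ccr2 (chr9:124101950-124113557, plus strand) are neighbors there. In TAMs Ccr3 fell by 1.10 and Ccr2 by 0.45 on the log2 scale, while Ccr1 was not called. Ccrl2 (chr9:111054486-111057519, minus strand) and Cx3cr1 (chr9:119901616-120069879, minus strand) lie farther off. Cxcr2 (chr1:74153989-74161246, plus strand) and Cxcr4 (chr1:128588199-128592293, minus strand) share chromosome 1, Ccr7 is at chr11:99144196-99155077 (minus strand) and Cxcr3 at chrX:101731535-101734269 (minus strand). All 9 are protein-coding genes of 2 to 4 exon blocks.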

How the data were processed

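Polyadenylated RNA was converted by the authors into strand-marked libraries and read as pairs of 42 bases, and, per the labels and the study's methods, they used Cutadapt 2.5, STAR 2.7.3a on GRCm38 and featureCounts of Subread 1.6.2. The deposited values are raw counts per Ensembl gene. A normalized table, deposited beside it, was not used. The strand setting is not given in the sources used here.

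edgeR 4.0.16 (R 4.3.3) served for the main test of the counts (quasi-likelihood test, filterByExpr with a minimum count of 10, TMM scaling, Benjamini-Hochberg adjustment over all genes, calls at an adjusted p under 0.05). SE is the log2 fold change divided by the root of the F statistic. DESeq2 1.42.0 and limma 3.58.1 served as alternatives. Gene names came from GENCODE, matching 99.67% of identifiers. The receptors and all gene lists were chosen with earlier results of these data known. Named beyond the 9 receptors were called genes averaging 1 CPM or more, at most 4 per list and genotype comparison by size of change and at most 6 ligands, and the 2 most correlated genes per receptor. One gene that this rule names is not reported here. Replicates differed by more than sampling noise (chi-square per degree of freedom 4.63 to 64.5). On simulated data with 200 genes changed 2-fold, 92.5% were recovered in TAMs and 28.5% in MDSCs.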

Additional observations from a re-analysis of the deposited data

Results flagged for a closer look

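Cxcr4, Ccrl2 and Ccr3 were picked out because their genotype differences in TAMs and in MDSCs differed from each other by the interaction test of edgeR. The difference of effects, TAM minus MDSC on the log2 scale, was 1.15 for Cxcr4 (adjusted p = 2.06e-05) and 0.70 for Ccrl2 (adjusted p = 0.000227), both from a rise in all 3 TAM libraries of Shp2f/fLysMcre mice beside MDSC values of −0.07 and −0.05 that did not pass the test. For Ccr3 it was −1.41 (adjusted p = 0.00438), from a fall in all 3 TAM libraries and an MDSC value of 0.34 that did not pass the test. Without replicate 2 of the Shp2f/fLysMcre MDSCs, the library with the fibroblast transcripts, the Ccr3 difference was −1 and still called.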

How the results depend on the processing

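In TAMs 7 of the 9 receptors were called under all 12 alternatives, and no receptor changed direction. The MDSC results depended most on the setting. The count of receptors called there, 0 in edgeR, was 2 with DESeq2 and 2 with one fit of all 10 libraries, and over the fits that left out 1 library it ran from 0 to 3 (3 without replicate 1 and 1 without replicate 2 of the Shp2f/fLysMcre MDSCs). The 633 genes called in MDSCs became 1256 with DESeq2, 130 with no filter on low counts, 2666 with one fit, and 1 to 4406 when a library was left out: 1 without either Shp2f/f replicate, 4406 without replicate 1 and 2729 without replicate 2 of the Shp2f/fLysMcre MDSCs. The 7257 genes called in TAMs became 4837 with one fit. The receptors called for a difference of effects ran from 3 to 6 when a library was left out, 6 without replicate 1 of the Shp2f/fLysMcre MDSCs, and the 4132 genes from 2446 to 7023. With total counts the MDSC value of Cx3cr1 turned to 0.02 and the difference of effects of Ccr2 to −0.06. Leaving out 1 library moved the MDSC log2 fold changes of Cx3cr1 over −0.22 to 0.15, Ccr3 over −0.06 to 0.63, Cxcr3 over −0.33 to 0.14, Cxcr4 over −0.18 to 0 and Ccrl2 over −0.14 to 0.01, and the differences of effects of Ccr7 over −0.19 to 0.06, Ccr2 over −0.04 to 0.27 and Cxcr2 over −0.05 to 0.62. A library left alone in its group was assumed to vary like the others, and the cause of these changes was not tested.

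Replicate numbers were not used as pairs in the main fits, since the labels do not tie libraries to mice. Deviations from the group mean of same-numbered TAM libraries correlated at −0.083 to 0.068 between the genotypes. Those of MDSCs correlated at 0.174 in both pairs, which are bound to be equal with 2 libraries per group. Same-numbered TAM and MDSC libraries of the same genotype correlated at −0.146 to 0.027. With the replicate number as a block, 2 receptors and 2674 genes were called in MDSCs. For the difference of effects, 5 receptors and 5232 genes were called, beside 3 receptors and 4132 genes in the main fit. With 2 libraries per genotype, only 28.5% of simulated 2-fold changes were recovered in MDSCs, so a receptor that missed the test there may still differ.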
